A study of Mus musculus with 4 samples.

Results

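The genes described here are the erythroid factors and membrane proteins Gata1, Klf1, Hemgn, Epor, Slc4a1, Rhag, Epb42 and Ahsp, 8 genes taken by name out of the 49997 genes of the count tables. A row was found for 7 of the 8, and Ahsp is not analysed here. All 7 passed the filter on low counts, so they are among the 19837 genes tested. They were read in explants of the AGM (aorta, gonad and mesonephros), the part of the mouse embryo in which definitive blood stem cells arise. The embryos were C57BL/6J, of stages E10.5 and E11.5 in the growth protocol and E10.5 alone in the series design. The explants were kept on membrane filters for 48 hours in medium with hydrocortisone, with 2 untreated libraries and 2 that had CCCP at 5 µM. CCCP carries protons across membranes and so dissipates the potential of the inner mitochondrial membrane. Nothing in the labels says whether libraries of a group came from separate cultures or embryos, so the spread between them may be technical.

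Red cell precursors are built by a small set of factors. GATA1 and KLF1 are DNA-binding proteins that switch on globin, haem and membrane genes, with GATA1 binding GATA motifs and KLF1 binding CACCC-type motifs, and hemogen, the product of Hemgn, is a nuclear protein of blood precursors whose gene is a target of GATA1. The erythropoietin receptor, encoded by Epor, carries the survival signal of erythroid progenitors and is found at low levels on some endothelial cells as well. In the maturing cell, band 3 (Slc4a1) exchanges chloride for bicarbonate and anchors the membrane skeleton, RHAG holds the Rh complex, protein 4.2 (Epb42) ties band 3 to the skeleton, and AHSP is the chaperone of free alpha globin. In the mid-gestation embryo most circulating red cells are primitive cells from the yolk sac, which carry embryonic globins, while GATA1 is also needed by megakaryocytes and mast cells.

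The stretches before the start sites are shown because the factors that bind such DNA, GATA1 and KLF1, are themselves members. RefSeq promoter sequences on GRCm38.p6 (the assembly of mm10) were found for 6 of the 7 members, all but Slc4a1. The 250 bases before each start were searched on both strands for GATA motifs (the letters GATA with A or T before and A or G after) and for the KLF motif CCNCNCCC. A GATA match was found in 5 of the 6 promoters, against 27.1% of 27025 mouse promoters of the same length, and a KLF match in 3 of the 6, against 45.6%. Both were found in 2 of the 6 members, Epor and Hemgn, against 8.28%. The Epor window (chr9:21963577-21963826, minus strand) holds 1 GATA match, read on the opposite strand and starting 54 bases before the start, and 4 KLF matches in 2 overlapping pairs. The Gata1 window (chrX:7967911-7968160, minus strand) holds no GATA match and 3 KLF matches, which begin 71, 55 and 34 bases before the start. The span of Gata1 in the files runs on to 7976663, so this start is not its most upstream one. No base of these windows lies in an exon of the GENCODE annotation of the same build, 0 of 250 for each. In both sequences, written 5′ to 3′ on the strand of the gene, the matches are in capitals.
Epor: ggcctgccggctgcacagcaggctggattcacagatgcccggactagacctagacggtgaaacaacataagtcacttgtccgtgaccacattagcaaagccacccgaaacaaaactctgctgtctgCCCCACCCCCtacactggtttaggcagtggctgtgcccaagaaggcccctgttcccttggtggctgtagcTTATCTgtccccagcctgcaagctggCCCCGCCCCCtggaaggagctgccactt
Gata1: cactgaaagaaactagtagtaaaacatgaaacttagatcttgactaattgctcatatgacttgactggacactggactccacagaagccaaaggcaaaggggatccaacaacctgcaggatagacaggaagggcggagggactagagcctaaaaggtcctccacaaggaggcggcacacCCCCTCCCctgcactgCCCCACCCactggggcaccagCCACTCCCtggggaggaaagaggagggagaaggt

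The other 4 promoters with a GATA match are shown as 30 bases around it, with the match in capitals. They are Klf1 (chr8:84901890-84901919, plus strand), Rhag (chr17:40811106-40811135, plus strand), Epb42 (chr2:121037086-121037115, minus strand) and Hemgn (chr4:46404184-46404213, minus strand).
Klf1: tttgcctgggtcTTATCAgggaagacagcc
Rhag: agtcctctgctcTTATCAacactatacagc
Epb42: gtctctatttccTTATCTcgttcaaacaga
Hemgn: ctcacacctgtgcagtgTGATAAagaaagt
The match lies 13 bases before the start in Hemgn, 31 in Rhag, 80 in Klf1 and 226 in Epb42. Parts of these 4 windows of 250 bases lie in GENCODE exons, 54 bases in Klf1, 23 in Rhag, 195 in Epb42 and 53 in Hemgn. The Rhag match lies inside the span of that gene in the deposited files, which begins at 40811099. The KLF matches of Hemgn come from a single run of G. A match describes letters only and is no evidence of binding.

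Depth was alike between the groups. The libraries held 37360968 to 48827826 counted reads, and replicate 1 was the deeper library in each group. In the comparison of CCCP with untreated explants, no gene had an adjusted p under 0.05 in edgeR (quasi-likelihood test with Benjamini-Hochberg adjustment; smallest adjusted p 0.122), while 2899 genes had an unadjusted p under 0.05 and DESeq2 called 594 genes. The labels call the material stem cells and the series design speaks of c-kit-positive cells, whereas the extraction protocol names whole explants. Kit and the pan-leukocyte gene Ptprc were detected in every library. The summed level of 10 mesenchymal markers (3383 to 5795 CPM, counts scaled to library size with TMM factors) was, however, above that of 10 stem and progenitor markers (274 to 320.5 CPM). The sums are not shares of cells, since the collagen genes Col1a1, Col1a2 and Col3a1 alone had 887, 1494 and 2303 CPM in untreated replicate 1. The summed level of 7 globin genes, the check on erythroid content, was 2612 and 3227 CPM without treatment and 2960 and 4946 CPM after CCCP. In such bulk RNA, a change in the number of erythroid cells and a change in RNA per erythroid cell cannot be told apart.

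The members had between 50 counts (Hemgn in CCCP replicate 1) and 3889 counts (Slc4a1 in CCCP replicate 2) in a library. They showed no common shift with CCCP. Of the 7, 4 had a positive and 3 a negative log2 fold change, their median was 0.04 against -0.01 over all genes tested, and none had an adjusted p under 0.05 in edgeR, against 0% of all genes. The groups overlapped for 6 of the 7. The exception was Epor, lower in both CCCP libraries, a pattern that 24.8% of all genes tested showed. The gap that stood out was instead the one between the CCCP libraries: all 7 members were higher in CCCP replicate 2 than in CCCP replicate 1, against 52.1% of all genes, and 6 of the 7 by at least 1.5-fold, against 9.02%. Between the untreated libraries 6 of the 7 were higher in replicate 1, against 49.9% of all genes. Of these, 1, Slc4a1, was higher by at least 1.5-fold, against 14.9% of all genes. The gap between CCCP libraries was noticed in the data and is given with no test.

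**Figure D1:**
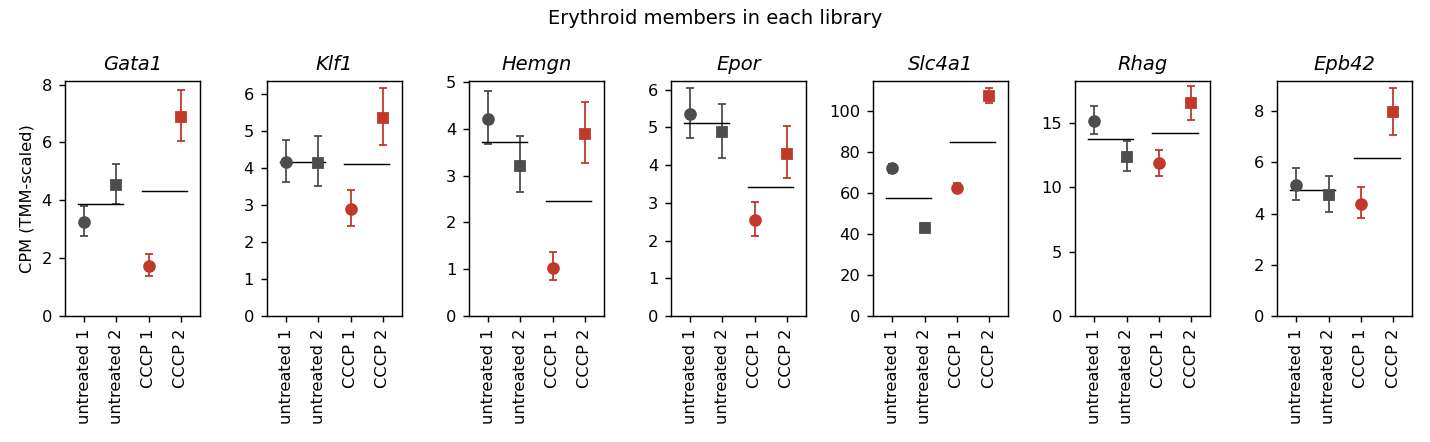
Level of each member in the 4 libraries, in CPM with TMM scaling on a linear axis from 0; points are libraries (grey untreated, red CCCP), bars the 95% Poisson interval of the count and black lines the group means. CCCP replicate 1 is the lowest library for 6 of the 7 genes and CCCP replicate 2 the highest for 5 of the 7.

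Coordinates of the genes are those of the deposited files, on mm10. Among the factors, Gata1 (chromosome X, 7959260 to 7976663, minus strand) had 3.26 and 4.52 CPM in untreated replicates 1 and 2, and 1.73 and 6.89 CPM in CCCP replicates 1 and 2. The CCCP libraries thus lay on either side of the untreated ones, 3.98-fold apart, on 84 and 250 counts. Group means were 3.89 ± 0.893 and 4.31 ± 3.65 CPM (SD, n = 2 each). The log2 fold change of Gata1 was 0.14 (SE 0.619, 95% interval -1.36 to 1.65), with an edgeR adjusted p of 0.933. On the opposite strand a predicted gene, Gm52419, shares 184 of the 2086 exon bases of Gata1 and had 0 counts in every library; reads there could not be assigned, because strand was not used in the counting.

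Klf1 (chromosome 8, 84901982 to 84905291, plus strand) had nearly the same level in both untreated libraries, 4.16 and 4.14 CPM. In CCCP it stood at 2.88 CPM in replicate 1 and 5.35 CPM in replicate 2, below and above both untreated values. The log2 fold change was -0.02 (SE 0.356, 95% interval -0.88 to 0.85; edgeR adjusted p 0.99). So the tight untreated pair sat in the middle of the CCCP pair, and the group means of 4.15 and 4.12 CPM hid that gap.

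Hemgn (chromosome 4, 46393989 to 46404183, minus strand) had 4.22 and 3.21 CPM untreated, and 1.03 and 3.89 CPM with CCCP. One CCCP library was the lowest of the 4 and the other lay between the untreated libraries. Its CCCP libraries were 3.77-fold apart, on 50 and 141 counts. Its log2 fold change was -0.61 (SE 0.604, 95% interval -2.08 to 0.86; edgeR adjusted p 0.656). Gata1 and Hemgn were the members with the widest gap between CCCP replicates; for the other 5 it lay between 1.39-fold and 1.85-fold.

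The receptor gene Epor (chromosome 9, 21958897 to 21963576, minus strand) had 5.35 and 4.87 CPM untreated and 2.53 and 4.30 CPM with CCCP. Both CCCP values were below both untreated values, but the higher of them was close to the lower untreated one and their 95% counting intervals overlapped (3.65 to 5.03 and 4.19 to 5.63 CPM). The means were 5.11 ± 0.344 and 3.42 ± 1.25 CPM (SD, n = 2). The log2 fold change of -0.59 (SE 0.333, 95% interval -1.40 to 0.22) had an edgeR adjusted p of 0.454. Without CCCP replicate 1 it was -0.24 and without CCCP replicate 2 it was -1, so its size moved with the library left out while its sign was negative in all alternatives run.

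The 3 membrane genes had positive log2 fold changes, none of which passed the test. Slc4a1 (chromosome 11, 102348820 to 102365281, minus strand) was by far the most counted member, with 1610 to 3889 counts. It had 71.9 and 43.1 CPM untreated and 62.5 and 107 CPM with CCCP. The ranges crossed, since CCCP replicate 1 lay between the untreated libraries. The log2 fold change was 0.56 (SE 0.325, 95% interval -0.23 to 1.35; edgeR adjusted p 0.463). This was the single member that any alternative called: with no filter on low counts its adjusted p in edgeR was 0.00982, against 0.0863 to 0.964 in the other alternatives. The log2 fold change was 0.99 without untreated replicate 1, 0.27 without untreated replicate 2, 0.91 without CCCP replicate 1 and 0.13 without CCCP replicate 2. Kidney cells use a shorter form of band 3 from the same gene, and counts summed per gene do not separate the forms.

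Rhag (chromosome 17, 40811099 to 40844094, plus strand) was the steadiest member. It had 15.1 and 12.4 CPM untreated and 11.9 and 16.5 CPM with CCCP, a span of 1.39-fold over all 4 libraries. Its log2 fold change of 0.04 had the smallest SE of the members, 0.232, and a 95% interval of -0.52 to 0.61 (edgeR adjusted p 0.945). Epb42 (chromosome 2, 121017891 to 121036877, minus strand) had 5.11 and 4.71 CPM untreated and 4.39 and 7.94 CPM with CCCP, so CCCP replicate 1 was the lowest and CCCP replicate 2 the highest library. Its log2 fold change was 0.32 (SE 0.336, 95% interval -0.49 to 1.14; edgeR adjusted p 0.671).

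**Figure D2:**
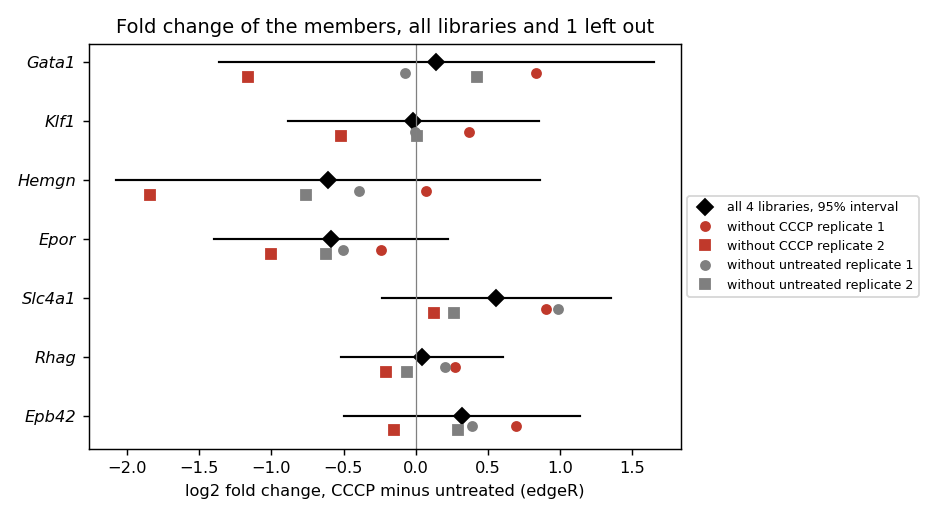
log2 fold change of each member, CCCP minus untreated, with its 95% interval over all 4 libraries (black) and the value with 1 library left out (coloured points). All 7 intervals cross 0, and for every gene the value without CCCP replicate 2 is the lowest of the 5 points.

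How far the direction rested on 1 library is seen by leaving each out. Without CCCP replicate 2, 6 of the 7 members had a negative log2 fold change and the median was -0.52. Without CCCP replicate 1, 6 of the 7 were positive and the median was 0.37. The median of all genes tested stayed between -0.03 and 0.03 in the 4 fits that leave out a library. Leaving out untreated replicate 1 or 2 gave medians of -0.01 and 0.01 for the members. Signs of Gata1, Klf1, Rhag, Epb42 and Hemgn changed in at least 1 of these 4 fits, while those of Epor and Slc4a1 did not.

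Corrected for exon length (RPKM, the scaled count per kilobase of exon), Slc4a1 was the highest member in all 4 libraries, at 15.8 and 9.46 RPKM untreated and 13.7 and 23.6 RPKM with CCCP. The other 6 lay between 0.446 and 3.62 RPKM, and their order was not fixed. Klf1 had rank 2 in 3 libraries, and Rhag had it in CCCP replicate 1. Gata1 had rank 3 in replicate 2 of both groups and rank 6 in replicate 1 of both. Hemgn was last in CCCP replicate 1, Epor last in CCCP replicate 2 and Epb42 last in both untreated libraries. Levels per length placed Slc4a1 apart from the rest, and no other neighbours in the order kept their places in all libraries.

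The members moved together from library to library, though not all in the same way. Over the 4 libraries, Pearson's r of log2 CPM was above 0 for 20 of the 21 pairs, with a median of 0.749. These are descriptions over 4 points that share their libraries, with no value for other genes set beside them. They partly restate the gap between the CCCP libraries, since CCCP replicate 1 was the lowest library for 6 of the 7. The highest values were those of Gata1 with Klf1 (0.972) and of Epor with Hemgn (0.958). Slc4a1 went with Epb42 (0.838) and Rhag (0.835) but not with Epor (-0.003) and little with Hemgn (0.262).

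A ratio of 2 members within a library does not depend on the scaling of that library. For each count of Epor there were 13.4 and 8.85 counts of Slc4a1 in the untreated libraries, and 24.7 and 24.9 with CCCP. The CCCP libraries, 1.72-fold apart in Slc4a1 itself, thus had nearly the same ratio. For Epb42 the ratio to Epor was 0.955 and 0.967 untreated, and 1.73 and 1.85 with CCCP. The ratio of Rhag to Epor was 2.83 and 2.54 against 4.68 and 3.85, and that of Klf1 to Epor 0.776 and 0.852 against 1.14 and 1.24. The groups did not overlap in these 4 of the 6 ratios to Epor, and in 12 of the 21 ratios between members. Over all pairs of genes counted in every library 44.1% did not overlap, and with 2 libraries a group the smallest two-sided p of an exact permutation test is 0.333, so these ratios are given as values only. They were chosen after the levels had been seen.

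**Figure D3:**
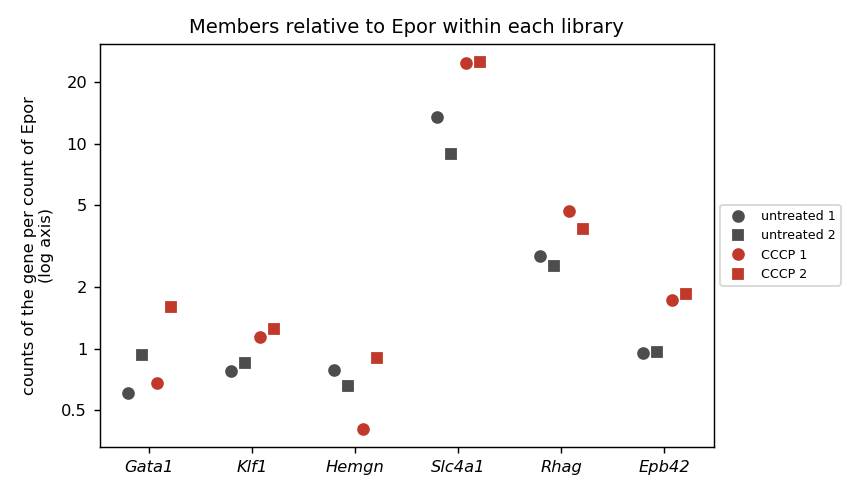
Counts of each member per count of Epor in the same library, on a log axis (grey untreated, red CCCP; circles replicate 1, squares replicate 2). Slc4a1, Rhag, Epb42 and Klf1 lie higher in both CCCP libraries than in both untreated ones, while Gata1 and Hemgn overlap.

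Ratios of the membrane genes to Hemgn varied more within the CCCP group. There were 17.1 and 13.4 counts of Slc4a1 per count of Hemgn untreated, and 60.7 and 27.6 with CCCP. The ratio of Epb42 to Hemgn was 1.21 and 1.47 untreated, and 4.26 and 2.04 with CCCP. That of Rhag to Hemgn was 3.59 and 3.86 untreated, and 4.26 in CCCP replicate 2. The groups did not overlap in these 3 ratios, as in 44.1% of all pairs of genes counted in every library. The ratios of Gata1 and Klf1 to Hemgn did not overlap either. The distance in the 3 ratios rested largely on CCCP replicate 1, and for Rhag the value of CCCP replicate 2 was close to the untreated ones.

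Set against the embryonic globins (Hba-x, Hbb-y and Hbb-bh1 summed), the CCCP libraries lay close together for 4 members. Per 1000 embryonic globin counts, Klf1 stood at 1.17 and 1.22 in the CCCP libraries, against 1.90 and 1.45 untreated. Slc4a1 had 25.4 and 24.4 there, against 32.8 and 15 untreated, and Epb42 had 1.78 and 1.81 against 2.33 and 1.64. Epor had 1.03 and 0.98 with CCCP, against 2.44 and 1.70 untreated. Rhag had 4.82 and 3.77 with CCCP, lower in replicate 2, against 6.91 and 4.32 untreated. Gata1 (0.702 and 1.57) and Hemgn (0.418 and 0.886) were still 2.24-fold and 2.12-fold apart between the CCCP libraries. Untreated, Gata1 had 1.49 and 1.58 and Hemgn 1.92 and 1.12. On this scale both CCCP values lay below both untreated values for 3 of the 7, Klf1, Epor and Hemgn, against 26.3% of all genes tested, while the groups overlapped for the other 4.

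Other erythroid genes were read by list, and none of them passed an adjusted p of 0.05 in edgeR. Of 15 other erythroid transcription factors and cofactors, 8 had positive and 7 negative log2 fold changes, with a median of 0.01. The best expressed were Ldb1 (262 and 258 CPM untreated, 292 and 291 CPM with CCCP), the scaffold that joins GATA1 and TAL1 complexes, and Foxo3 (134 and 120 against 121 and 114 CPM), a forkhead factor of red cell maturation. Bcl11a, a repressor of embryonic and fetal globin genes, had 114 and 77.5 CPM against 86.9 and 84.8 CPM. Cited2, a transcriptional co-regulator, had 66.9 and 83.6 CPM against 79.6 and 91.4 CPM. Their log2 fold changes lay between -0.16 and 0.18.

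In the erythropoietin pathway 11 of 12 genes were tested, 7 with positive and 4 with negative log2 fold changes (median 0.03). Of the 11, 4 lay higher and 3 lower in both CCCP libraries, against 24% and 24.8% of all genes tested. Epo itself, the ligand, had 1, 10, 0 and 4 counts in untreated replicates 1 and 2 and CCCP replicates 1 and 2 and was not tested. Tfrc, the transferrin receptor that brings iron into erythroblasts and other dividing cells, had 109 and 141 CPM untreated and 66.6 and 106 CPM with CCCP, lower in both CCCP libraries (log2 fold change -0.54, edgeR adjusted p 0.373). Bcl2l1, the anti-apoptotic Bcl-xL, had 60.4 and 60.0 CPM against 68.3 and 70.8 CPM. Pim1, a kinase induced by cytokine signals, and the adaptor Gab1 overlapped between groups, with log2 fold changes of 0.03 and 0.01. Erfe, the iron-regulating hormone of erythroblasts, had 35 and 43 counts untreated and 57 and 75 counts with CCCP (log2 fold change 0.81, edgeR adjusted p 0.478); it was picked out after its values were seen.

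Of 18 other red cell membrane and skeleton genes, 9 had positive and 9 negative log2 fold changes, with a median of 0.002. None had both CCCP libraries above both untreated libraries and 1 had both below, against 24% and 24.8% of all genes tested. That gene was Cd47, a signal against engulfment by macrophages, at 32.5 and 33.0 CPM untreated and 27.8 and 31.0 CPM with CCCP. Sptb, erythroid beta spectrin, ran from 27.7 CPM in CCCP replicate 1 to 44.0 CPM in untreated replicate 1. Epb41, protein 4.1, was flat at 310 to 334 CPM. Add2, beta adducin, ran from 80.5 to 109 CPM. In this list 14 of 18 genes were higher in CCCP replicate 2 than in CCCP replicate 1, against 52.1% of all genes.

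Most globin and haem genes had positive log2 fold changes, none past the test. Of 7 globin genes 6 were positive (median 0.49), and 3 had both CCCP libraries above both untreated libraries, against 24% of all genes tested. Hbb-y, the main embryonic beta-like globin, had 1403 and 1643 CPM untreated and 1564 and 2225 CPM with CCCP. Hba-x, the embryonic zeta-like globin, had 371 and 384 against 448 and 716 CPM (log2 fold change 0.62, edgeR adjusted p 0.311). Hbb-bh1, another embryonic beta-like globin, had 418 and 837 against 453 and 1446 CPM, higher in replicate 2 of both groups. Hba-a1, an adult alpha globin gene whose close duplicate makes its count uncertain, had 314 and 267 against 385 and 431 CPM.

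Of 11 haem synthesis and iron uptake genes 8 had a positive log2 fold change (median 0.31), 5 had both CCCP libraries above both untreated libraries (24% of all genes tested did), and all 11 were higher in CCCP replicate 2 than in CCCP replicate 1 (52.1% of all genes). Alas2, the erythroid enzyme that starts haem synthesis, had 39.4 and 46.5 CPM untreated and 51.9 and 78.8 CPM with CCCP. Alad, the next enzyme of the pathway, had 54.9 and 66.7 against 48.8 and 85.8 CPM. Cpox, a later enzyme, had 58.0 and 60.1 against 38.2 and 76.3 CPM, and the mitochondrial iron importer Slc25a37 had 59.8 and 55.9 against 35.0 and 59.5 CPM. In these 3 CCCP replicate 1 was the lowest library, as it was for 6 members.

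Of 12 late maturation genes 7 had a positive log2 fold change (median 0.31), 5 lay higher and 2 lower in both CCCP libraries. Together these 7 of 12 were near the 48.8% of all genes whose groups did not overlap. Slc25a39, a mitochondrial carrier needed for glutathione import, had 67.3 and 98.8 CPM untreated and 110 and 106 CPM with CCCP. Car2, a carbonic anhydrase of red cells and other tissues, had 34.3 and 45.5 against 30.6 and 67.8 CPM. Bnip3l, the receptor through which maturing red cells clear mitochondria, had 141 and 169 against 151 and 144 CPM, and the nuclear export factor Xpo7 had 133 and 140 against 126 and 132 CPM.

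**Figure D4:**
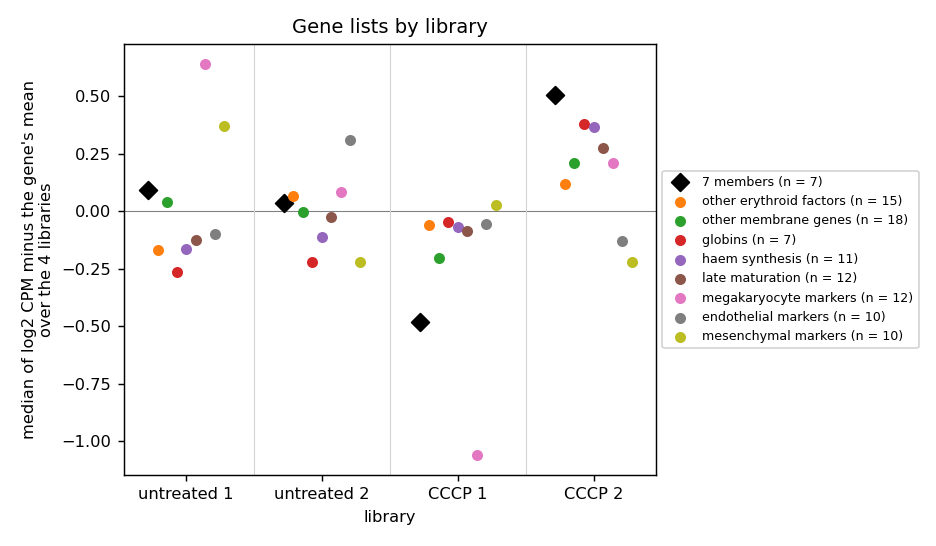
Median over each list of log2 CPM minus the mean of the gene over the 4 libraries, by library; black diamonds are the 7 members and coloured circles the other lists, with n the genes tested. The members stand at 0.09 and 0.04 in the untreated libraries, -0.48 in CCCP replicate 1 and 0.51 in CCCP replicate 2, and the megakaryocyte markers at -1.06 in CCCP replicate 1.

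Markers of other cell types that use Gata1 were read beside the members. The 12 megakaryocyte and platelet markers summed to 176 and 135 CPM untreated and 96.3 and 143 CPM with CCCP. Of these, 11 had a negative log2 fold change (median -0.58), 4 lay lower and 1 higher in both CCCP libraries, against 24.8% and 24% of all genes tested. In CCCP replicate 2, 10 of the 12 were higher than in CCCP replicate 1, against 52.1% of all genes. All 7 members and all 11 haem genes were higher there too. Pf4, a platelet chemokine, had 20.7 and 13.8 CPM untreated and 8.26 and 17.7 CPM with CCCP. Itga2b, the platelet integrin alpha chain, had 32.5 and 24.3 against 11.6 and 29.6 CPM. Itgb3 had 53.26 and 36.15 against 22.5 and 36.06 CPM, with replicate 2 nearly the same in both groups. Vwf went the other way, with 38.0 and 38.5 against 41.6 and 39.5 CPM, and was lower in CCCP replicate 2 than in CCCP replicate 1. These 4 are the best expressed of the list. The part of megakaryocytes in the Gata1 and Hemgn levels was not tested. Of 9 mast cell and eosinophil markers, 7 had under 10 counts in every library, 3 of them 0 (Mcpt4, Tpsb2 and Fcer1a), and the list summed to 0.882 to 1.48 CPM.

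Hepatic markers differed most between the groups among the marker lists, with 11 of 12 genes lower in both CCCP libraries against 24.8% of all genes tested, although none passed an adjusted p of 0.05 in edgeR (smallest 0.133). The 12 genes summed to 1774 and 1007 CPM untreated and 54.2 and 111 CPM with CCCP, all 12 had a negative log2 fold change (median -4.44) and none was at 0 in every library. Within the CCCP group 10 of the 12 were higher in replicate 2, against 52.1% of all genes. It is the library in which the members were higher too. Fetal liver is a site of red cell formation, and the part of hepatic tissue in the level of the members was not tested. The 9 macrophage markers tested (median 0.14) summed to 236 and 161 CPM untreated and 233 and 236 CPM with CCCP; Vsig4 was at 0 in every library. The 10 endothelial markers (median -0.19) ran from 542 CPM in CCCP replicate 2 to 724 CPM in untreated replicate 2, and the part of endothelium in the level of Epor was not tested. The 9 stem and progenitor markers tested had a median of -0.20, and the 10 mesenchymal markers one of -0.16.

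The mean profile of the members over the 4 libraries was compared with those of genes outside the lists. Among 12246 genes with a mean of at least 5 CPM, the nearest by Euclidean distance on centred log2 CPM included Tdg-ps2, Gm6206, Ccdc85a, Rpl35a-ps2 and Cd300a, at distances of 0.195 to 0.288. Of these, 2 are named as pseudogenes, whose counts are uncertain because reads shared with a parent gene were dropped. Cd300a, a receptor of myeloid cells, had 6.93 and 5.67 CPM untreated and 4.33 and 7.06 CPM with CCCP. This likeness rests on 4 libraries and carries no test.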

How the data were processed

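Gene counts were analysed as deposited. Per the file headers, the authors counted reads over exons per gene with featureCounts 2.0.3 on the mm10 RefSeq annotation; no strand or multi-mapping option was set, and read pairs were given to the counter without the option to count fragments, so each mate may be counted singly and counting intervals are then too narrow. The submitters' processing notes name HISAT2, SAMtools, Subread, FastQC and mm10. Groups follow the sample titles. Of the 49997 genes, the 19837 that passed the filterByExpr filter (minimum count 10, minimum total 15) were fitted with edgeR 4.0.16 in R 4.3.3. The fit used TMM scaling and a two-sided quasi-likelihood test on group only, with Benjamini-Hochberg adjustment over all genes tested (threshold 0.05). DESeq2 1.42.0 was an alternative. SE is the log2 fold change over the square root of F. CPM and RPKM use TMM-scaled library sizes; 3 counts equal 0.0599 to 0.0827 CPM. Counting intervals (95%, exact Poisson) cover counting error only. The edgeR step was tested on simulated data. Members and lists were chosen with earlier results of these data known. Named are all members, the 4 best expressed genes of each erythroid list, others where a sentence says so, and those of the 6 nearest profiles given in the text, 1 gene not being reported here; Fam132b was matched as Erfe. Marker lists are described by sums, counts and medians.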

Additional observations from a re-analysis of the deposited data

How the results depend on the processing

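The count of genes with an adjusted p under 0.05 was 0 with all 4 libraries, with DESeq2 size factors, with total counts, with the exon length trend removed and with globin and mitochondrial genes left out. It was 594 in DESeq2, 1107 without the filter and 10 to 46 when 1 library was left out. With the replicate block it was 2118, and 2507 with the replicate block and the length trend removed; the cause was not tested. Same-numbered libraries deviated together (correlation 0.36 over 19837 genes), but the labels give no meaning to the numbers, so they are not used as a pairing. No member was called in either fit with the block. The median of the members was 0.043, ran from -0.515 to 0.372 with 1 library left out, and moved by less than the spread between replicates elsewhere. Signs reversed, with no call, as follows. With the replicate block Gata1 had -0.118, and -0.127 with the length trend removed as well. With total counts Rhag had -0.0204. With 1 library left out, Gata1 ran from -1.16 (without CCCP replicate 2) to 0.833 (without CCCP replicate 1) and was -0.0727 without untreated replicate 1, and Klf1 ran from -0.515 to 0.372 and was 0.0114 without untreated replicate 2. In these fits Rhag ran from -0.204 to 0.271 (-0.0634 without untreated replicate 2), Epb42 from -0.153 to 0.698 and Hemgn from -1.84 to 0.0707, each lowest without CCCP replicate 2 and highest without CCCP replicate 1. With 2 libraries a group, the spread between CCCP replicates, not counting error, limits the precision for Gata1 and Hemgn.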
